A study of Mus musculus with 18 samples.

Results

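The 9 genes described here, Drd1, Drd2, Adora2a, Gpr6, Penk, Tac1, Ppp1r1b, Rgs9 and Isl1, mark the projection neurons of the striatum, a region that was not among the tissues dissected in the study. They were chosen by name, with earlier results of these data known, so counts among them beside the shares of all genes are descriptions. They were found through the transcript annotation of the array's probes. Of 41174 probes 11 belonged to them, 2 each for Adora2a and Penk and 1 each for the other 7 genes. All 11 probes passed the filter on dim probes, so all 9 genes were among the 22671 genes tested. Total RNA of cerebral cortex, hippocampus and brainstem was measured on Agilent 1-colour arrays in male 129SV mice that either carried Nrf2 (wild type) or lacked it (Nrf2 knockout). There were 6 groups, 3 regions by 2 genotypes, with 3 arrays each. No treatment is named in the labels, and the age of the mice and the construction of the knockout allele are not given in the sources used here. The labels number the samples within each group but do not say whether a number names the same animal in different regions, and p-values therefore speak only of the variation among these arrays.

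Striatal projection neurons release GABA and fall into direct-pathway neurons, which carry the D1 dopamine receptor and the substance P precursor Tac1, and indirect-pathway neurons, which carry the D2 dopamine receptor, the adenosine receptor Adora2a and the enkephalin precursor Penk. Both kinds express Ppp1r1b (DARPP-32), which inhibits protein phosphatase 1 when protein kinase A phosphorylates it, and Rgs9, which speeds the shut-off of G proteins behind dopamine receptors. None of the genes is exclusive to the striatum: dopamine neurons of the midbrain carry Drd2, Penk and Tac1 are used by many neurons of cortex and brainstem, and Isl1 is a transcription factor of motor neurons as well as of direct-pathway neurons. The striatum lies directly beneath the cortex.

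A level is the log2 processed intensity of a probe minus the 75th percentile of its array, so that 0 is the 75th percentile. Probes differ in brightness, so levels of different genes were not compared. Differences are log2 differences ± SE from limma, and called genes are those with an adjusted p under 0.05 (Benjamini-Hochberg over all 22671 genes). The share of spots well above background was 65.3% to 75.11% per array, and 0 spots were saturated. The level of Nfe2l2, the gene for Nrf2, averaged 0.85, 0.94 and 1.22 in wild-type cortex, hippocampus and brainstem and -7.96, -4.66 and -6.28 in the knockout, and in each region every knockout array lay below every wild-type array. Markers of the dissected regions followed the labels too. Of the 10 hippocampal markers, 9 were called higher in wild-type hippocampus than in cortex, and of the 8 hindbrain markers tested, 7 were called higher in brainstem than in cortex. The arrays labelled brainstem also carried diencephalic transcripts, since 10 of 10 thalamic and 7 of 8 hypothalamic markers were called higher there than in cortex. The arrays lay on 5 slides. Each slide held equal numbers of wild-type and knockout arrays of any region on it, and no slide held cortex together with another region.

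Of the 9 genes, 6 had entries in the RefSeq promoter table (GRCm38.p6), 7 promoters in all: Drd1 with 2, and Drd2, Gpr6, Isl1, Rgs9 and Tac1 with 1 each. Penk, Adora2a and Ppp1r1b are named only. Because the genes moved together on some arrays, 3 motifs were searched on both strands from 250 bases before to 50 bases after the start: the cAMP response element TGACGTCA, its short form TGACG, which lies within it on both strands, and TGACNNNGC, the core of the antioxidant response element to which Nrf2 binds. Of 32851 promoters in the table, 1.79% held TGACGTCA, 20.8% held TGACG and 12.4% held TGACNNNGC. The 4 promoters with a match are shown as the 250 bases before the start, 5′ to 3′ on the strand of the gene, with every match on either strand in capitals.
Gpr6: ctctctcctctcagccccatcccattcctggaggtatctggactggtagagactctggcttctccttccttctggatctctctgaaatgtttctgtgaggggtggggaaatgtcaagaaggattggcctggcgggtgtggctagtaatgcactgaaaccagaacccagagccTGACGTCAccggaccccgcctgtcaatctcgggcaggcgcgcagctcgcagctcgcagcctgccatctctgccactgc
Isl1: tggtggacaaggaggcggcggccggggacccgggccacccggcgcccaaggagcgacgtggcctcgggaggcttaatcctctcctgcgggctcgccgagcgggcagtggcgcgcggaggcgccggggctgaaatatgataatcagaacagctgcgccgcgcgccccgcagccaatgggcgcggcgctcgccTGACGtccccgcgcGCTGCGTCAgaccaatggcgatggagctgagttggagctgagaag
Tac1: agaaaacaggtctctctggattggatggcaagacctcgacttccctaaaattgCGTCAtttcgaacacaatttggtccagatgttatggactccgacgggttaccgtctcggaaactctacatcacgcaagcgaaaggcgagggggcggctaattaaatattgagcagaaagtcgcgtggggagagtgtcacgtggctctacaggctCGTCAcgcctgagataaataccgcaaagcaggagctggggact
Drd2: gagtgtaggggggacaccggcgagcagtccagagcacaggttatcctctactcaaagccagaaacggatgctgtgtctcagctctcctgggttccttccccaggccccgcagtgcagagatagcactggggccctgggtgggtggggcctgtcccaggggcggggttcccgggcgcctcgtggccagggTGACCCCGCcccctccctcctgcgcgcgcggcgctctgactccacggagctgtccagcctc
The Gpr6 stretch is chr10:41072291-41072540 on the minus strand, and TGACGTCA stands in it at -78 to -71 from the start. In Isl1 (chr13:116309689-116309938, minus strand), TGACG stands at -59 to -55, and a reverse-strand match of TGACG at -41 to -37 lies within one of TGACNNNGC at -45 to -37. Tac1 (chr6:7554811-7555060, plus strand) has 2 reverse-strand TGACG, at -197 to -193 and at -43 to -39. Drd2 (chr9:49340153-49340402, plus strand) has 1 TGACNNNGC at -61 to -53. The promoters of Drd1 and Rgs9 held none of the 3 letter strings in this window. A match is a description of letters and not a binding site.

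All 9 markers were detected in cortex, and in wild-type mice 8 of them were called lower in hippocampus than in cortex, by limma, with a median difference of -2.39 over the 9. Of all genes tested, 16.7% were called in this comparison and 9.69% were called lower. Against brainstem, cortex was higher for Drd1, Ppp1r1b, Gpr6, Rgs9, Penk and Adora2a, 6 of 9 genes where 35.7% of all genes were called and 16.7% were called lower in brainstem. Brainstem exceeded hippocampus for Isl1, Drd2, Tac1 and Penk and was lower for Adora2a, 5 of 9 genes where 41.5% of all genes were called, 22.1% higher and 19.4% lower. In tissue RNA, fewer cells of a type and less RNA per cell cannot be told apart. Region and slide cannot be told apart in the comparisons with cortex either, since no slide held cortex together with another region.

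Among the dopamine receptors, Drd1, the receptor that raises cAMP in direct-pathway neurons, had levels of 0.10, -0.02 and 0.06 in the wild-type cortices and -0.08, -0.28 and -0.58 in the knockout cortices. In hippocampus the Drd1 levels were -2.87, -2.76 and -2.03 in wild type and -2.54, -2.002 and -3.49 in knockout. In brainstem they were -4.10, -3.22 and -3.08 in wild type and -2.13, -3.16 and -0.80 in knockout. The 6 cortices stood above all 12 other arrays, and the brainstem arrays spread widest, with the third knockout highest. Drd1 was lower in wild-type hippocampus than in cortex, with a difference of -2.60 ± 0.49 (limma, adjusted p 0.00189, a 6.08-fold difference) and lower in brainstem than in cortex, with a difference of -3.51 ± 0.49 (adjusted p 5.44e-05, 11.4-fold). Hippocampus and brainstem, neighbours in the order, differed by -0.91 ± 0.49, which was not called (limma, adjusted p 0.154).

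Drd2, the receptor that lowers cAMP in indirect-pathway neurons and also the autoreceptor of dopamine neurons, had levels of -2.08, -2.03 and -1.92 in wild-type cortex and -2.64, -2.62 and -2.95 in knockout cortex. Its levels in hippocampus were -4.46, -4.59 and -4.30 in wild type and -4.52, -4.84 and -4.23 in knockout. In brainstem they were -1.47, -1.93 and -1.97 in wild type and -2.14, -1.77 and -1.75 in knockout. Hippocampus was lowest on every array, and brainstem and cortex overlapped in wild type. Drd2 was lower in wild-type hippocampus than in cortex, with a difference of -2.44 ± 0.17 (limma, adjusted p 6e-07) and higher in brainstem than in hippocampus by 2.66 ± 0.17 (adjusted p 2.26e-08), while brainstem and cortex differed by 0.22 ± 0.17 (adjusted p 0.355). With normexp background correction the called Drd2 differences were -1.53 and 1.65. In the knockout mice, brainstem exceeded cortex by 0.85 ± 0.17 (limma, adjusted p 0.00141).

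The order of Adora2a, the adenosine receptor that opposes D2 signalling in indirect-pathway neurons, depended on the probe. On probe A_52_P240878, the brighter over all 18 arrays and the one that stood for the gene, the levels were -1.52, -1.32 and -1.005 in wild-type cortex, -1.39, -1.39 and -1.25 in wild-type hippocampus and -2.26, -1.85 and -1.71 in wild-type brainstem. On the knockout arrays this probe read -1.64, -1.38 and -1.15 in cortex, -1.52, -1.29 and -1.36 in hippocampus and -1.60, -1.88 and -1.53 in brainstem. Cortex and hippocampus overlapped on this probe, with a difference of -0.06 ± 0.17 in wild type (limma, adjusted p 0.845). Brainstem was lower than cortex, with a difference of -0.66 ± 0.17 (limma, adjusted p 0.00633) and than hippocampus, with a difference of -0.59 ± 0.17 (adjusted p 0.0103), the latter at 0.0605 without the first wild-type brainstem.

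The other Adora2a probe, A_51_P387348, separated cortex from both other regions. It read 0.15, 0.75 and 0.46 in wild-type cortex and 0.10, 0.37 and 0.02 in knockout cortex, against -3.18, -3.68 and -3.20 in wild-type and -2.86, -2.73 and -3.12 in knockout hippocampus. In brainstem it read -3.24, -3.34 and -3.30 in wild type and -1.77, -3.22 and -0.31 in knockout, so that the third knockout brainstem stood above all other brainstems and close to the cortices. Fitted with all 30066 probes, wild-type hippocampus was lower than cortex on this probe, with a difference of -3.80 ± 0.47 (limma, adjusted p 7.12e-05) and brainstem, with a difference of -3.75 ± 0.47 (adjusted p 2.05e-05). On this probe the third and then the first knockout brainstem were highest of the brainstems. The same held on A_52_P240878 and for Drd1, Gpr6, Rgs9, Ppp1r1b, Isl1 and Tac1, but not for Penk or Drd2. The files hold no probe sequences, and which transcripts the probes detect was not tested.

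**Figure D1:**
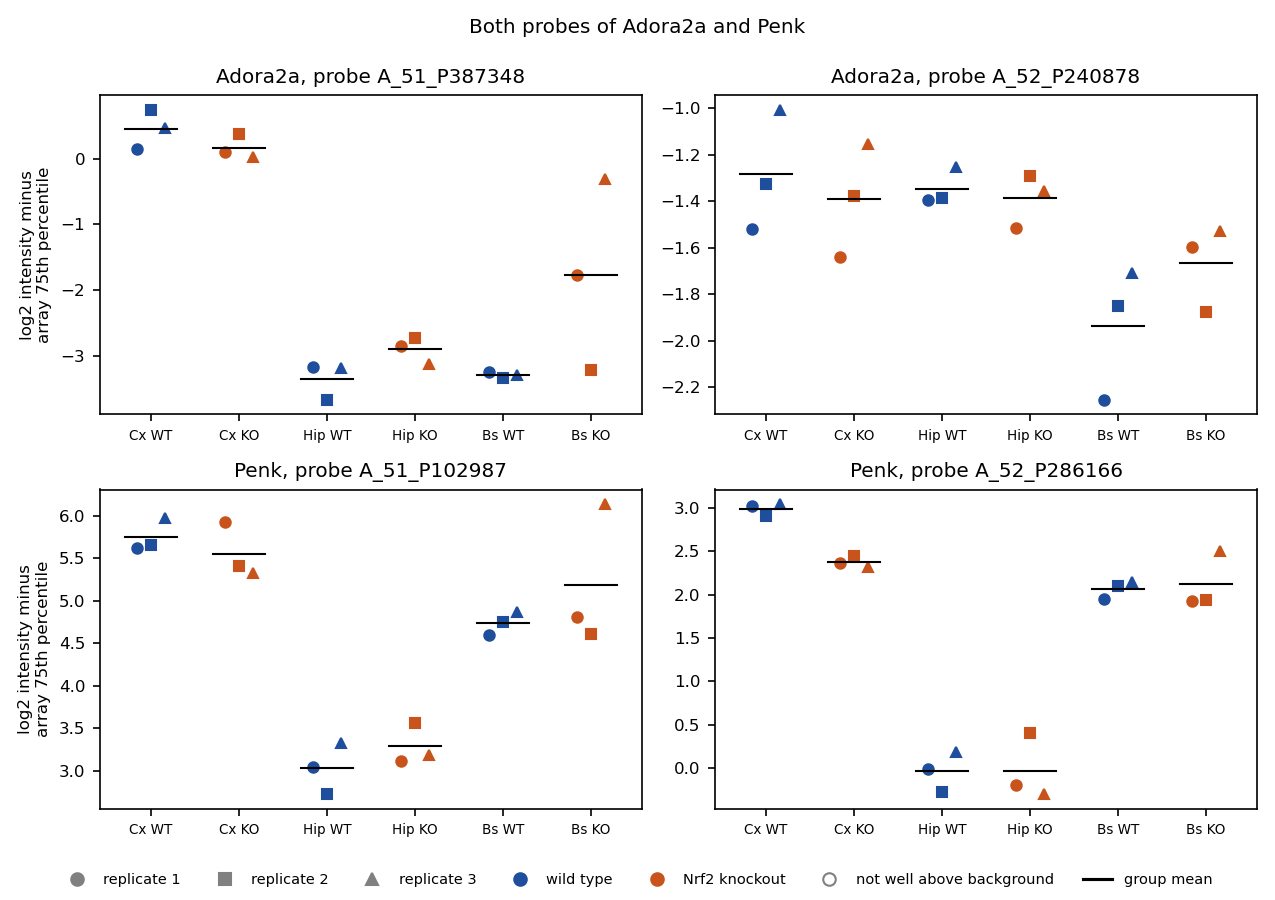
Log2 level (y axis, log2 intensity minus the 75th percentile of the array, scales differ) of the 2 probes of Adora2a and the 2 probes of Penk on the 18 arrays, by region (Cx cortex, Hip hippocampus, Bs brainstem) and genotype (x axis); points are arrays and lines are group means of 3. The Adora2a probes disagree on cortex against hippocampus (-0.06 on A_52_P240878 and -3.80 on A_51_P387348 in wild type), and the Penk probes share the order of the regions.

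Gpr6, an orphan receptor of indirect-pathway neurons that raises cAMP, was dim in all groups. Its levels in cortex were -3.05, -3.18 and -3.03 in wild type and -3.74, -3.69 and -3.58 in knockout. In hippocampus they were -5.44, -5.78 and -5.22 in wild type and -5.75, -5.16 and -6.08 in knockout, of which the last was not well above background. In brainstem they were -5.72, -5.46 and -5.65 in wild type and -4.66, -5.44 and -4.06 in knockout. Cortex was highest on every array, and within cortex the 3 knockouts lay below the 3 wild types. Gpr6 was lower in wild-type hippocampus than in cortex, with a difference of -2.39 ± 0.28 (limma, adjusted p 4.47e-05) and in brainstem, with a difference of -2.52 ± 0.28 (adjusted p 6.14e-06), whereas hippocampus and brainstem differed by -0.13 ± 0.28 (adjusted p 0.733). With normexp background correction the differences of this dim gene from cortex were -1.06 in hippocampus and -1.16 in brainstem, both still called.

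Of the peptide precursors, Penk had levels of 5.61, 5.66 and 5.97 in wild-type cortex, 3.04, 2.72 and 3.33 in wild-type hippocampus and 4.59, 4.75 and 4.87 in wild-type brainstem. The knockout levels were 5.93, 5.40 and 5.33 in cortex, 3.11, 3.56 and 3.19 in hippocampus and 4.81, 4.60 and 6.14 in brainstem. The wild-type regions did not overlap, and the third knockout brainstem exceeded every cortex on this probe. Hippocampus was lower than cortex, with a difference of -2.72 ± 0.31 (limma, adjusted p 3.65e-05), brainstem lower than cortex, with a difference of -1.01 ± 0.31 (adjusted p 0.0199) and brainstem higher than hippocampus by 1.71 ± 0.31 (adjusted p 0.000467). The second Penk probe, A_52_P286166, gave wild-type cortex 2.99 ± 0.08, hippocampus -0.03 ± 0.24 and brainstem 2.07 ± 0.10 (mean ± SD, n = 3), the same order of the wild-type regions. On that probe the third knockout brainstem read 2.51, above the knockout cortices but below the wild-type cortices. Without the third wild-type cortex the main probe's difference between brainstem and cortex was -0.90 (limma, adjusted p 0.0727), and without the first wild-type brainstem -0.94 (adjusted p 0.0661).

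Tac1 had levels of 1.91, 1.63 and 1.94 in wild-type and 1.74, 1.55 and 1.41 in knockout cortex. Hippocampus gave -0.59, -0.68 and -0.20 in wild type and -0.27, -0.15 and -0.74 in knockout, and brainstem gave 1.24, 1.61 and 1.60 in wild type and 1.66, 1.53 and 2.04 in knockout. Hippocampus stood below all other arrays, while cortex and brainstem came close to each other. Tac1 was lower in wild-type hippocampus than in cortex, with a difference of -2.32 ± 0.19 (limma, adjusted p 1.77e-06) and higher in brainstem than in hippocampus by 1.98 ± 0.19 (adjusted p 9.31e-07), and brainstem and cortex differed by -0.35 ± 0.19 (adjusted p 0.172).

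Of the signalling proteins, Ppp1r1b had levels of 0.48, 0.55 and 0.49 in wild-type cortex and -0.39, 0.43 and -0.19 in knockout cortex. Its levels in hippocampus were -1.16, -1.67 and -1.62 in wild type and -1.48, -1.69 and -2.11 in knockout. In brainstem they were -2.04, -2.18 and -2.05 in wild type and -1.45, -2.38 and -0.92 in knockout. The wild-type cortices lay close together, and the knockout brainstems spread widest. Ppp1r1b was lower in wild-type hippocampus than in cortex, with a difference of -1.99 ± 0.30 (limma, adjusted p 0.000328) and in brainstem, with a difference of -2.60 ± 0.30 (adjusted p 8.52e-06), and brainstem and hippocampus differed by -0.61 ± 0.30 (adjusted p 0.119).

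Rgs9 read 1.51, 1.51 and 1.80 in wild-type and 1.06, 1.18 and 0.87 in knockout cortex. It read -0.71, -0.75 and -0.88 in wild-type and -0.63, -0.69 and -1.12 in knockout hippocampus, and -0.82, -0.52 and -0.60 in wild-type and -0.38, -0.62 and 0.77 in knockout brainstem. The third knockout brainstem again stood away from the other brainstems and came near the lowest cortex. Rgs9 was lower in wild-type hippocampus than in cortex, with a difference of -2.39 ± 0.26 (limma, adjusted p 2.67e-05) and in brainstem, with a difference of -2.25 ± 0.26 (adjusted p 9.86e-06), and the latter regions differed by 0.14 ± 0.26 (adjusted p 0.711).

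Isl1, the transcription factor, was printed on 10 spots per array. Its levels were -2.84, -2.82 and -2.36 in wild-type and -2.61, -2.78 and -3.96 in knockout cortex, and -2.47, -2.36 and -2.31 in wild-type and -2.10, -2.28 and -1.50 in knockout brainstem. In hippocampus they were -5.98, -6.66 and -6.85 in wild type and -6.08, -6.92 and -4.75 in knockout, of which -6.85 and -6.92 were not well above background. Hippocampus was lower than cortex, with a difference of -3.82 ± 0.46 (limma, adjusted p 5.08e-05) and than brainstem, which exceeded it by 4.12 ± 0.46 (adjusted p 4.59e-06), while brainstem and cortex differed by 0.30 ± 0.46 (adjusted p 0.654). The SD between the 10 spots of an array was 0.04 to 0.11 on the cortex arrays and 0.19 to 0.64 on the hippocampus arrays, where the signal was near background. With normexp background correction the differences of Isl1 were smaller, -1.53 for hippocampus minus cortex and 1.68 for brainstem minus hippocampus, and both were still called.

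**Figure D2:**
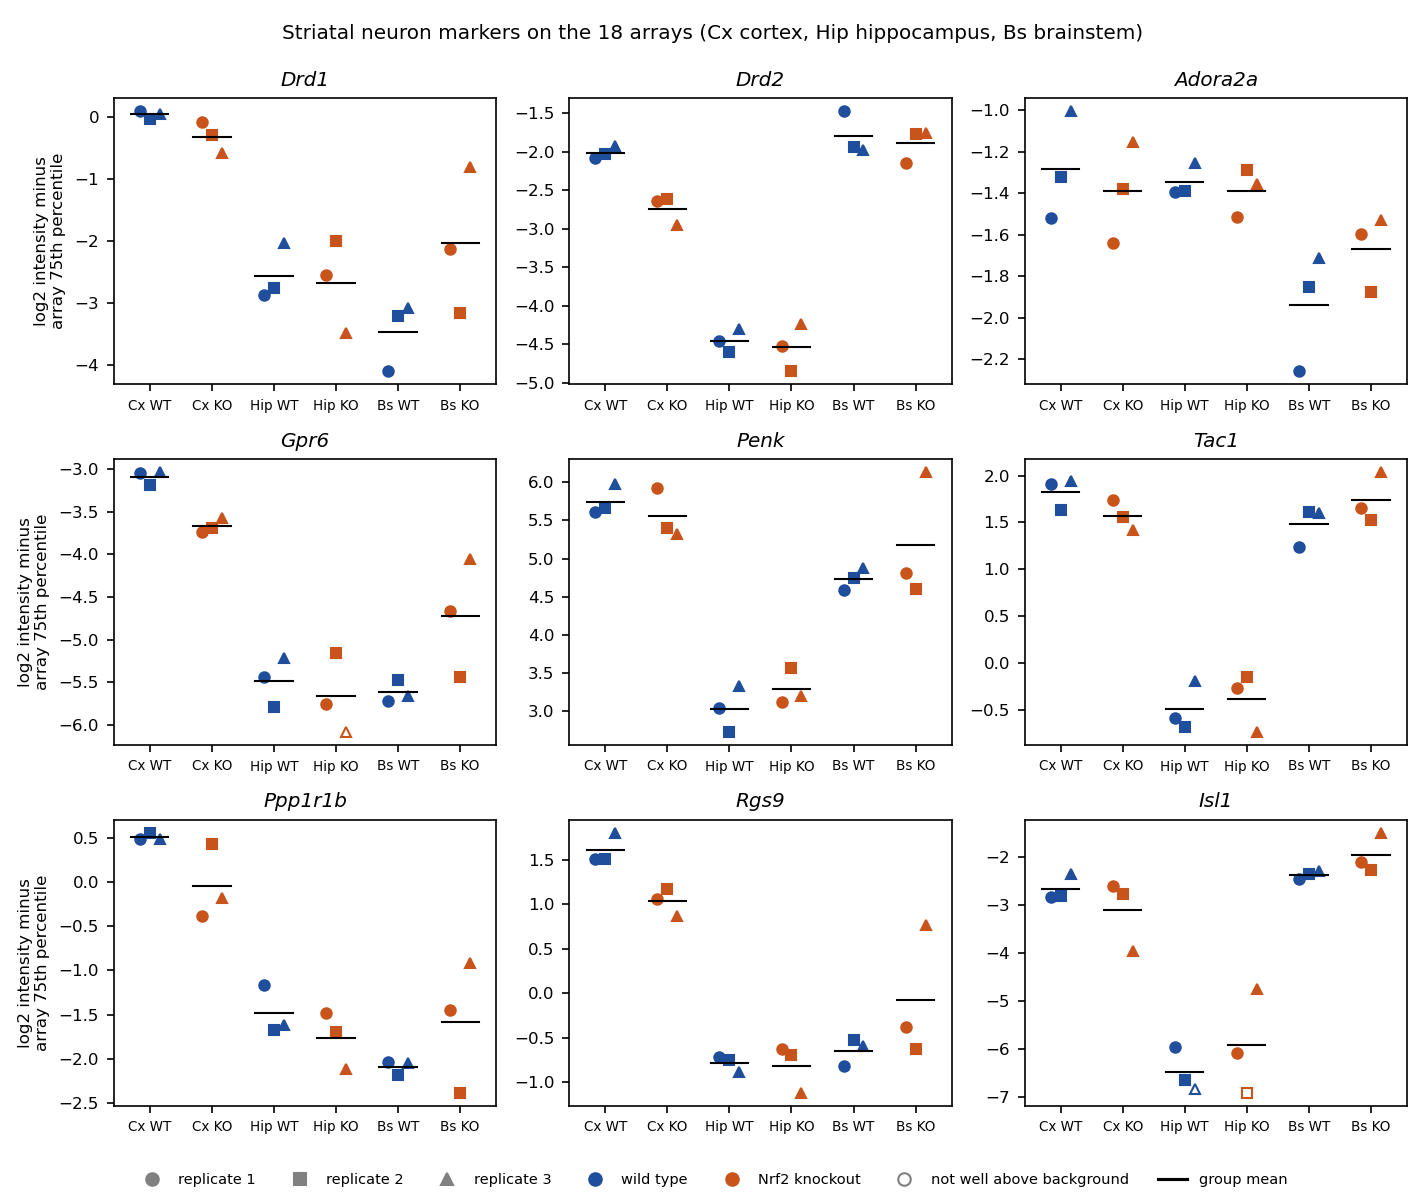
Log2 level (y axis, log2 intensity minus the 75th percentile of the array, scales differ) of the 9 markers on the 18 arrays by region (Cx cortex, Hip hippocampus, Bs brainstem) and genotype (x axis); points are arrays, open points are not well above background and lines are means of 3. Except for Adora2a on the probe drawn, hippocampus lies below cortex, and the third knockout brainstem (triangle) is the highest brainstem for 8 of the 9 genes.

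Among knockout mice, 8 markers were again called lower in hippocampus than in cortex (limma; 16.3% of all genes called, 8.72% lower). Between knockout brainstem and cortex, Drd2 was called higher and Drd1, Gpr6, Ppp1r1b and Rgs9 lower (35.5% of all genes called, 18.9% higher and 16.6% lower), and 6 markers were called higher in knockout brainstem than in hippocampus (40.3% of all genes called, 20.8% higher). Penk, called lower in wild-type brainstem than in cortex, differed by -0.37 ± 0.31 in knockout (limma, adjusted p 0.396). Without the third knockout brainstem, the latter difference was -0.85 ± 0.21 and was called (limma, adjusted p 0.00631). Other calls rested on single arrays too. Drd1 in knockout brainstem against cortex reached a limma adjusted p of 0.0695 without the second knockout brainstem. In knockout brainstem against hippocampus, Gpr6 reached 0.0662 and Rgs9 0.133 without the third knockout brainstem, and 0.071 and 0.138 without the third knockout hippocampus. Rgs9 also reached 0.0583 without the second knockout hippocampus, and Gpr6 0.109 with normexp background correction.

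To find what Nrf2 loss did to the markers, knockout and wild type were compared within each region. In no region was a marker called: limma's adjusted p was 1 for all 9 markers in cortex, hippocampus and brainstem. Over all genes, 0.0309% were called in cortex, 0.0176% in hippocampus and 0.0309% in brainstem. The differences nevertheless had unlike signs in cortex and brainstem. In cortex all 9 were below 0, with a median of -0.44, where 50.1% of all genes were below 0. In brainstem 8 of 9 were above 0, with a median of 0.45, where 49% of all genes were below 0. In hippocampus 6 were below and 3 above 0, with a median of -0.04, where 43.1% of all genes were below 0. The medians over all genes were 0.00, 0.02 and 0.00 in cortex, hippocampus and brainstem.

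In cortex, the knockout minus wild-type difference was -0.72 ± 0.17 for Drd2, -0.58 ± 0.28 for Gpr6, -0.57 ± 0.26 for Rgs9 and -0.56 ± 0.30 for Ppp1r1b. For Isl1 it was -0.44 ± 0.46, for Drd1 -0.36 ± 0.49, for Tac1 -0.26 ± 0.19, for Penk -0.20 ± 0.31 and for Adora2a -0.11 ± 0.17. Drd2 and Rgs9 had an unadjusted limma p under 0.05, 2 of 9 genes against 2.2% of all genes. For Drd1, Drd2, Gpr6, Ppp1r1b and Rgs9, the 3 knockouts lay below the 3 wild types, 5 of 9 genes, whereas groups did not overlap for 5.99% of all genes and lay in that direction for 3.05%. The other Penk probe gave -0.61 ± 0.19 in cortex, also without overlap, with adjusted p 1 (limma). The other Adora2a probe gave -0.29 ± 0.47 in cortex and 0.45 ± 0.47 in hippocampus, and neither was called.

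Cortices differed among themselves in the same genes. The third wild-type cortex stood above the mean of the 6 cortices for 9 of 9 markers and was the highest cortex for 7 of them, and the third knockout cortex stood below it for 8 of 9 and was the lowest for 6. Both arrays lay on the same slide. Between these 2 arrays the difference was below 0 for 9 of 9 markers with a median of -0.65, and on the slide that held the other 4 cortices it was below 0 for 7 of 9 with a median of -0.22. Without the third knockout cortex, all 9 differences stayed below 0 with a median of -0.23, and Isl1 was -0.02. Adora2a turned to 0.03 without the third wild-type cortex and to 0.02 without the first knockout cortex.

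In brainstem, the difference was 1.44 ± 0.49 for Drd1, 0.89 ± 0.28 for Gpr6, 0.57 ± 0.26 for Rgs9 and 0.51 ± 0.30 for Ppp1r1b. Penk followed with 0.45 ± 0.31, Isl1 with 0.42 ± 0.46, Adora2a with 0.27 ± 0.17 and Tac1 with 0.26 ± 0.19, and Drd2 alone was below 0 at -0.10 ± 0.17. Drd1, Gpr6 and Rgs9 had an unadjusted limma p under 0.05, 3 of 9 genes against 3.05% of all genes. The knockouts lay above the wild types for Gpr6 and Isl1, 2 of 9 genes, where groups did not overlap for 6.69% of all genes and lay in that direction for 3.81%. The other Adora2a probe gave 1.53 ± 0.47 (limma, adjusted p 1).

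The brainstem differences were smaller without the third knockout brainstem. This array stood above the mean of the 6 brainstems for 9 of 9 markers, by a median of 0.92, and was the highest brainstem for 8 of them, Drd2 being the exception. Without it the median over the markers was 0.18 in place of 0.45, with 7 of 9 above 0, and Penk was -0.03, Rgs9 0.14, Ppp1r1b 0.18, Gpr6 0.56 and Drd1 0.82. On the slide that held the other 4 of these arrays, 8 of 9 differences were above 0 with a median of 0.20, and the third pair, on another slide, gave 9 of 9 with a median of 1.14. Without the second knockout brainstem, whose markers were low, the median was 0.73. At the other end, the first wild-type brainstem was the lowest brainstem for 7 markers, by a median of -0.37 from the mean of the region.

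**Figure D3:**
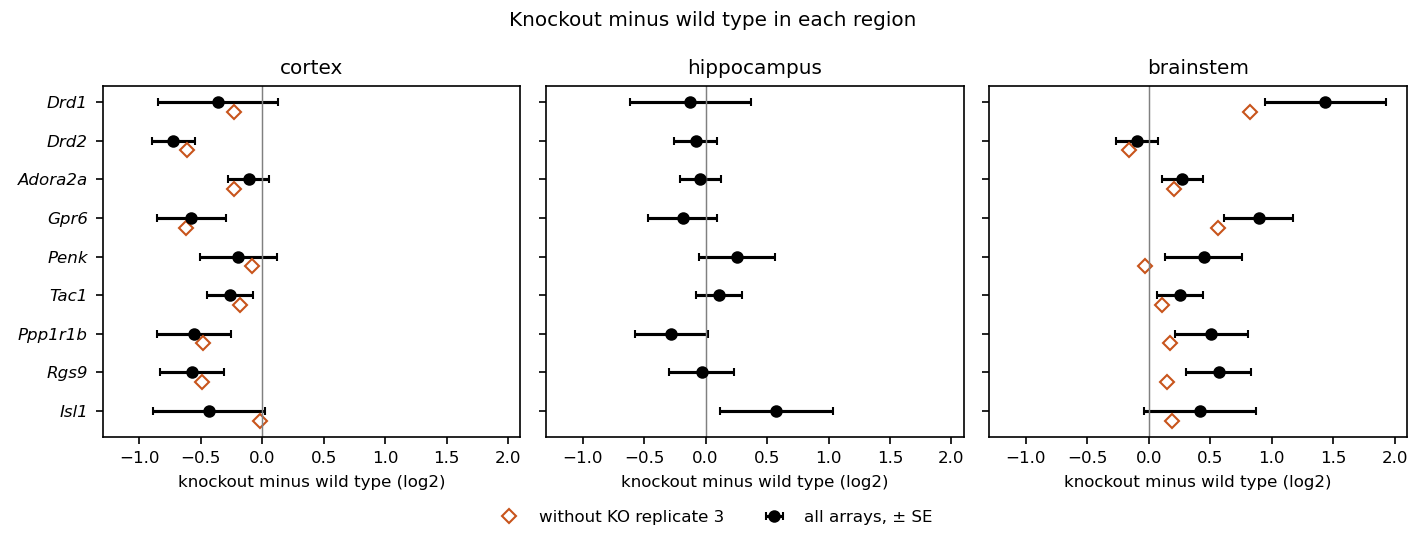
Knockout minus wild type (x axis, log2) of each marker (y axis) in cortex, hippocampus and brainstem; black points with bars are differences ± SE from 3 arrays per group, and open diamonds are the differences without the third knockout array of cortex or brainstem. In cortex all 9 points lie below 0 (median -0.44, or -0.23 without the third knockout), and in brainstem 8 of 9 lie above 0 (median 0.45, or 0.18 without the third knockout).

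In hippocampus, the differences ran from -0.28 ± 0.30 for Ppp1r1b to 0.58 ± 0.46 for Isl1, and 0 of 9 had an unadjusted limma p under 0.05, against 1.36% of all genes. The genotypes overlapped for all 9 markers, whereas they did not for 7.92% of all genes. The third knockout hippocampus was the lowest of its region for 5 markers, with a median of -0.30 from the mean of the region, while its Isl1 stood 1.46 above it. Within slides, the median was -0.06 for the pair on 1 slide and -0.09 for the 4 arrays on the other.

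Whether the knockout difference varied between regions was tested directly. The difference in cortex minus that in brainstem was below 0 for 9 of 9 markers with a median of -0.86, where 50.9% of all genes were below 0, and limma called 0 of them and 0% of all genes. It was -1.80 ± 0.69 for Drd1, -1.47 ± 0.40 for Gpr6, -1.14 ± 0.37 for Rgs9, -1.06 ± 0.42 for Ppp1r1b and -0.63 ± 0.25 for Drd2, and these 5 had an unadjusted p under 0.05, against 0.891% of all genes. Cortex minus hippocampus was below 0 for 9 of 9 markers (53.5% of all genes) with a median of -0.39. Limma called 0 markers and 0% of all genes, and only Drd2, at -0.64 ± 0.25, had an unadjusted limma p under 0.05, against 0.86% of all genes. Hippocampus minus brainstem was below 0 for 7 of 9 (46.6% of all genes) with a median of -0.32. Limma called 0 markers and 0% of all genes, and Drd1 at -1.56 ± 0.69 and Gpr6 at -1.08 ± 0.40 were under the unadjusted limma threshold, against 0.975% of all genes. The 3 contrasts share arrays. Their medians were -0.53 without the third knockout cortex for cortex minus brainstem, -0.25 without the second knockout hippocampus for cortex minus hippocampus, and -0.16 without the first wild-type brainstem for hippocampus minus brainstem. Averaged over the regions, 6 markers were above and 3 below 0 with a median of 0.04, and limma called 0 (0.0529% of all genes), with 1 at an unadjusted p under 0.05 (6.94% of all genes).

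Correlations between the markers over arrays were higher in cortex and brainstem than in hippocampus. Over the 6 cortices, with the mean of the region removed and the genotype difference left in, the 36 pairs of markers had a median Pearson correlation of 0.682, and 31 pairs were above 0. Rgs9 correlated at 0.983 and Drd2 at 0.962 with the mean of the other 8, Adora2a at 0.105. Over the 6 brainstems the median was 0.875, with 29 pairs above 0: Isl1 stood at 0.992 and Rgs9 at 0.977 with the mean of the others, and Drd2 at -0.232. The third knockout brainstem had a median deviation of 0.92 from the region mean, against -0.37 to 0.07 on the other brainstems. The correlations over brainstems alone were not computed without it. Over the 6 hippocampi the median correlation was 0.129, with 19 pairs above 0, and Isl1 stood at -0.779. These are descriptions, since values of one array share its RNA, labelling and scaling. With the mean of each group removed, so that the genotype difference could not enter, the median over the 18 arrays was 0.355 with 26 of 36 pairs above 0, and 0.231 with 22 pairs above 0 when the third knockout brainstem was left out.

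**Figure D4:**
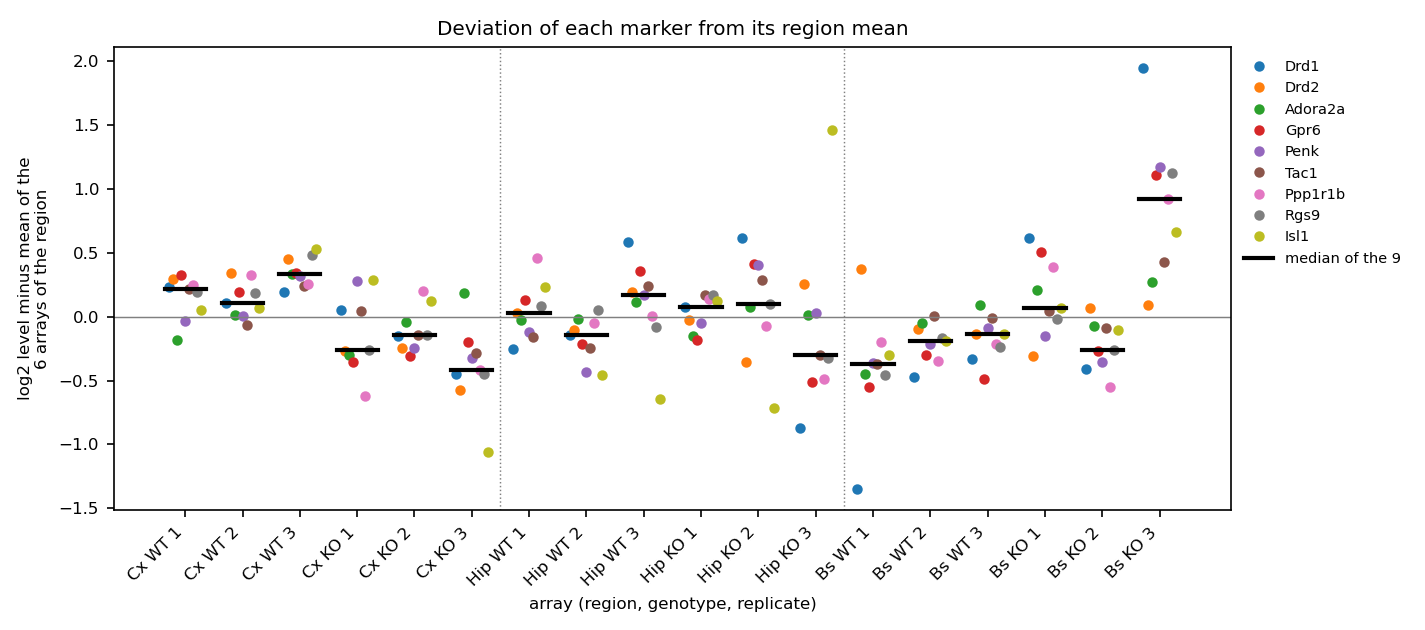
Deviation of each of the 9 markers (coloured points) from the mean of the 6 arrays of its region (y axis, log2) on each of the 18 arrays (x axis), with the median of the 9 as a black line. On the third knockout brainstem all 9 lie above 0 with a median of 0.92, and on the third wild-type cortex all 9 lie above 0 with a median of 0.33, while the third knockout cortex has a median of -0.42.

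The spread within groups was larger for some markers than for most genes. The residual SD was 0.65 for Drd1 and 0.61 for Isl1, at the percentiles 94.9 and 93.9 of all genes, whose median was 0.22. Penk (0.41), Ppp1r1b (0.39), Gpr6 (0.37) and Rgs9 (0.34) lay at the percentiles 83.4, 81.8, 78.9 and 75.9. Tac1 (0.24), Drd2 (0.22) and Adora2a (0.21) lay near the median of all genes. The median deviation of all genes from the mean of the region ran from -0.05 to 0.03 over the arrays, each of which had been scaled to its own 75th percentile. It was -0.05 on the third knockout cortex, -0.04 on the third wild-type cortex and -0.03 on the third knockout brainstem.

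Other genes of the striatum were counted in the same comparisons. The list of striatal development and identity held 12 genes, of which 9 were on the array and tested. In wild-type hippocampus 7 of them were called lower than in cortex and 1 higher (limma), where 16.7% of all genes were called and 9.69% lower, with a median of -1.86. Ido1, which opens tryptophan breakdown, stood at -3.07 ± 0.40, the homeobox gene Six3 at -2.97 ± 0.38, the forkhead factor Foxp2 at -2.82 ± 0.35 and the retinoid receptor Rxrg at -1.86 ± 0.25. In brainstem 7 were called lower than in cortex and 1 higher, where 35.7% of all genes were called and 16.7% lower, with Ido1 at -2.59 ± 0.40, the muscle and spine protein Actn2 at -2.47 ± 0.16, the zinc-finger factor Bcl11b at -2.17 ± 0.16 and Foxp1 at -1.44 ± 0.13. For knockout minus wild type, limma called 0 of the 9 in each region, and 1, 0 and 3 had an unadjusted p under 0.05 in cortex, hippocampus and brainstem, against 2.2%, 1.36% and 3.05% of all genes. In cortex 8 of 9 were below 0 with a median of -0.19 (-0.10 and 7 of 9 without the third knockout), and Six3 had the smallest p at -0.87 ± 0.38. In brainstem 9 of 9 were above 0 with a median of 0.30 (0.13 and 7 of 9 without the third knockout), with Actn2 at 0.60 ± 0.16.

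The list of dopamine and cAMP signalling held 18 genes, all tested. In wild-type mice 11 were called lower and 2 higher in hippocampus than in cortex, against 16.7% of all genes called and 9.69% lower, among them Arpp21, a phosphoprotein regulated by cAMP, at -2.30 ± 0.51 (limma). In brainstem 13 were called lower than in cortex and 3 higher, against 35.7% of all genes called and 16.7% lower, with Arpp21 at -4.05 ± 0.51 and Gng7, a G protein subunit of striatal receptors, at -2.14 ± 0.23. For knockout minus wild type, limma called 0, and 1, 1 and 2 had an unadjusted p under 0.05 in cortex, hippocampus and brainstem, against the same shares of all genes as for the identity list. In cortex 14 of 18 were below 0 with a median of -0.11, and the phosphodiesterase Pde1b had the smallest p at -0.30 ± 0.13. In brainstem 12 were above 0 with a median of 0.06, and Arpp21 had the smallest p at 1.31 ± 0.51.

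Smaller lists gave fewer genes. Among further direct-pathway genes, Ebf1 (2.70 ± 0.25) was called higher and Eya1 (-1.14 ± 0.11) lower in wild-type brainstem than in cortex (35.7% of all genes called). In hippocampus, Eya1 (0.53 ± 0.11) was called higher than in cortex and Slc35d3 (-2.92 ± 0.28) lower (limma, 16.7% of all genes called). Among further indirect-pathway genes only Ptprm was called against cortex, lower in hippocampus (-0.55 ± 0.18). Of 6 further direct-pathway genes 5 were tested and 0 called by limma between genotypes (0 at an unadjusted p under 0.05), with a median of 0.13 in cortex, where 4 of 5 were above 0, and 0.11 in brainstem, where 3 of 5 were. Without the third knockout array the medians were 0.26 in cortex and -0.17 in brainstem, with 4 of 5 and 1 of 5 above 0. In brainstem the muscarinic receptor gene Chrm4 had the smallest p at 1.03 ± 0.56. Of 5 further indirect-pathway genes 3 were tested and 0 called (0 unadjusted), with medians of 0.05 in cortex and 0.09 in brainstem, where 3 of 3 were above 0 in each. Without the third knockout array these medians were -0.02 with 1 of 3 above 0 and 0.53 with 3 of 3. Receptors of the peptides (3 of 6 tested) had medians of -0.41 in cortex and -0.06 in brainstem (-0.35 and -0.05 without the third knockout array). The other dopamine and adenosine receptors (5 of 6 tested) had 0.03 and -0.04 (-0.05 and -0.08 without it), again with 0 called by limma and 0 unadjusted in these regions. The cholinergic list, which covers interneurons of the striatum and motor neurons of the brainstem, had 4 of 5 genes tested and 0 called by limma, with 1 gene each at an unadjusted p under 0.05 in cortex and brainstem. In cortex all 4 were below 0 in knockout with a median of -0.76, and -0.38 without the third knockout, and the acetylcholine transporter gene Slc18a3 stood at -1.11 ± 0.39. In brainstem 3 of 4 were above 0 with a median of 0.16 (0.21 and 2 of 4 without the third knockout), and Lhx8, a homeobox gene of forebrain cholinergic neurons, stood at 1.97 ± 0.72.

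Markers of other tissues were set beside the arrays that stood apart. On the third knockout brainstem, the striatal identity list had a median of 0.55 from the mean of the region, with 8 of 9 genes above it. There the choroid plexus list had a median of 1.63, with 8 of 8 above, the thalamus list -0.18 and the hypothalamus list -0.31. On the third knockout cortex, the striatal identity list stood at -0.29 with 0 of 9 above, the cholinergic list at -0.66 and the choroid plexus list at -2.12 with 0 of 8 above. The mean level of the choroid plexus list ran from -2.51 to -1.49 in wild-type and from -4.56 to -1.20 in knockout cortex, from -3.98 to 0.67 and from -3.77 to 0.09 in hippocampus and from -4.05 to -2.23 and from -3.91 to -1.12 in brainstem. All 8 of its genes were well above background on the third knockout brainstem and 5 of 8 on the third knockout cortex. For knockout minus wild type, limma called 0 of the 8 choroid plexus genes in each region (0 unadjusted). The list had 8 of 8 below 0 in cortex (median -0.76), 8 of 8 below 0 in hippocampus (-1.32) and 7 of 8 above 0 in brainstem (0.43), and without the third knockout array it turned to 0.20 in cortex and -0.33 in brainstem. The median deviation of the cortex list on the 6 cortices ran from -0.07 to 0.11, highest on the third knockout. Its mean level ran from -0.18 to -0.14 in wild-type and from -0.17 to -0.04 in knockout cortex. The part of these tissues in the marker differences was not tested.

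**Figure D5:**
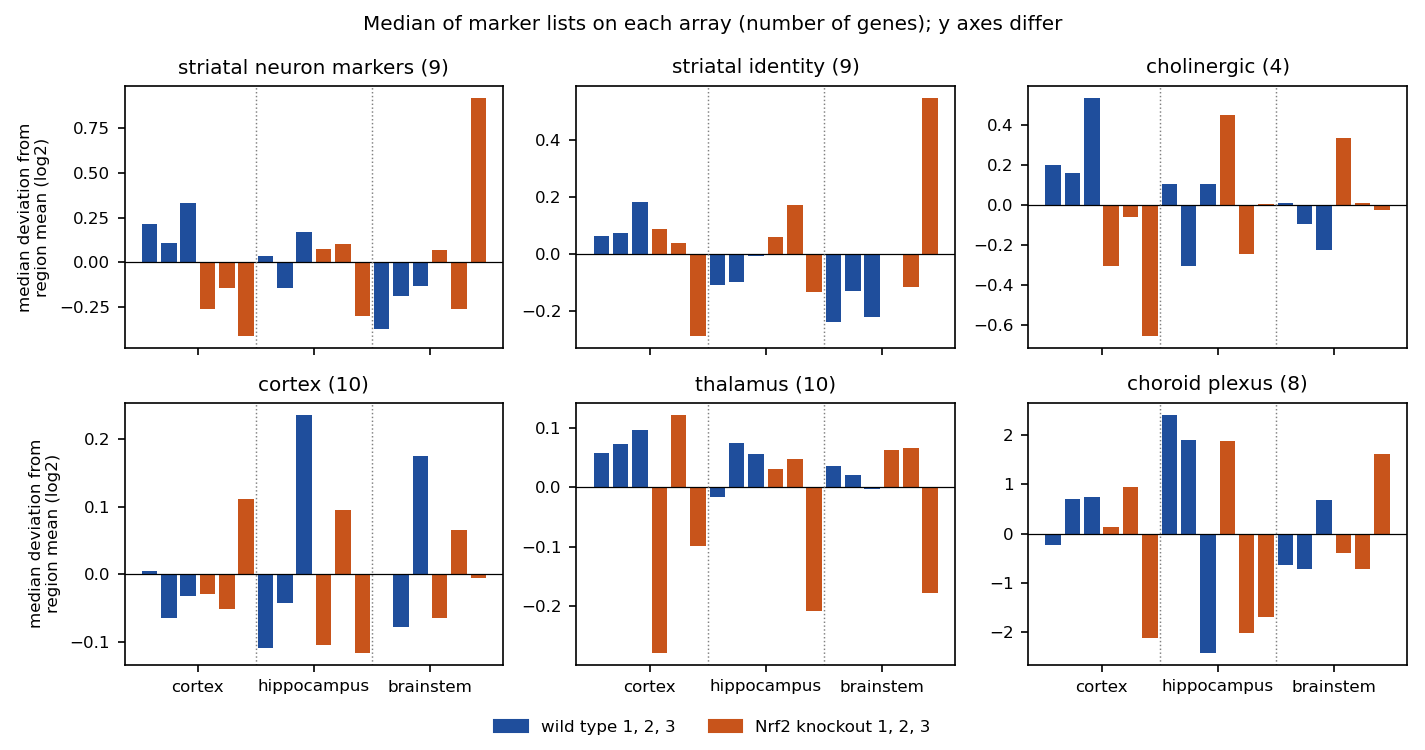
Median deviation from the mean of the region (y axis, log2, scales differ) of 6 marker lists on the 18 arrays (x axis, 3 wild-type bars and then 3 knockout bars in each region), with the number of genes in brackets. On the third knockout brainstem the 9 markers stand at 0.92, the striatal identity list at 0.55 and the choroid plexus list at 1.63, the highest brainstem of each.

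The genes most like the markers were ranked by Pearson correlation with the mean of the 7 markers that were well above background on all 18 arrays, among 13324 named genes. With group means removed over the 18 arrays, these were Igsf10 (0.896), Tiam2 (0.870), Car8 (0.866), Akap5 (0.858), Arpp21 (0.856), Plppr1 (0.852), Rxrg (0.849) and Afg3l1 (0.848), against a median of -0.001 over all candidates. Akap5 anchors protein kinase A at synapses, Rxrg is a retinoid receptor and Car8 a member of the carbonic anhydrase family. Without the third knockout brainstem the values were lower, from 0.512 for Plppr1 to 0.774 for Car8, and Car8 ranked 4 among all candidates and Arpp21 14. Over the 6 cortices, with their mean removed, the highest were Sytl4 (0.976), Calcr (0.975), 1810055G02Rik (0.971), BC024139 (0.970), Mcf2l (0.964), Cda (0.962), Tbc1d10a (0.958) and P2ry1 (0.953). Their Spearman coefficients ran from 0.886 to 1, and with 6 arrays and 13324 candidates high values are drawn from many.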

How the data were processed

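The 9 markers and all gene lists were chosen with earlier results of these data known. Per the labels' protocols, total RNA was extracted with Isogen, amplified and labelled with Cy3, and hybridised to 1-colour Agilent arrays. Per the file headers, spots were read with Agilent Feature Extraction (10.7.3.1) under the mm9 design. The authors deposited the scanner output, in which the processed intensity of each spot is a linear, background-subtracted value, and a table of normalised intensity per probe. Of the 18 columns of that table, 11 equalled the array they name within 0.5% and 7 equalled another array, so the scanner files were used and the table served as an alternative. The 7 were the columns of the third knockout cortex and of the hippocampus.

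Control spots and spots with outlier or non-uniformity marks (30 to 140 per array) were left out, log2 processed intensity was scaled to the 75th percentile of each array (652.1 to 1130 intensity units) and spots of a probe were averaged. A probe was kept if some group had it well above background on each of its 3 arrays (30066 of 41174), and a gene with several probes was represented by the brightest on average; 26690 probes carried 1 gene symbol and 14484 none, which were tested under their transcript accession. One model with 1 mean per group over the 18 arrays was fitted in limma (3.58.1, R 4.3.3; 12 residual degrees of freedom). It was also run on simulated data, and the outcome of that run is not given here. The number of arrays limits the precision. Genes named from the lists were up to 4 called genes with the largest difference, or, where none was called, the gene with the smallest p. One gene that this rule names is not reported here. Each sample's group and number came from its title. Same-numbered wild-type and knockout arrays of a region deviated together from their group means (correlations 0.239 to 0.622, 9 of 9 pairs over 0.1). Both arrays of each pair lay on the same slide, so a shared number and a shared slide cannot be told apart here. The fit with the number as a block, with the same effect of a number in all regions, was an alternative. Same-numbered arrays of different regions within a genotype had correlations of -0.052 to 0.71, with 14 of 18 pairs over 0.1. The fit with genotype and number together as a random block was a further alternative.

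The alternatives were normexp background correction, quantile and median scaling, no filter and a stricter filter, the mean of a gene's probes, trend and robust moderation, number and slide as blocks, the groups compared alone, the authors' deposited table and each array left out. The fit with slide as a block left out the comparisons of hippocampus or brainstem with cortex, which share no slide. The slide as a random block, the other probe of Adora2a and Penk, and the lists and correlations without 1 array were chosen after seeing the data. The scanner files held no mean signal used here, so normexp ran on the median signal and median background (offset 50).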

Additional observations from a re-analysis of the deposited data

How the results depend on the processing

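No marker was called between genotypes in any region under any alternative or with any array left out. With the replicate block the counts of markers called were those of the unblocked fit in all comparisons (8, 6 and 5 between wild-type regions), and cortex Drd2 had a limma adjusted p of 0.679. With genotype and number as a random block, Isl1 was called higher in knockout brainstem than in cortex (limma, adjusted p 0.0492). Leaving out 1 array gave 0 to 0 calls between genotypes; among regions it gave 8 to 8 for hippocampus against cortex in either genotype, 5 to 6 and 4 to 6 for brainstem against cortex in wild type and knockout, and 4 to 6 for brainstem against hippocampus in each. In the authors' deposited table, with columns as labelled, hippocampus against cortex had 0 calls in wild type and 0 in knockout, knockout brainstem had 1 against cortex and 3 against hippocampus. Wild-type hippocampus minus cortex was -2.46 ± 0.46 for Drd2 and -2.50 ± 0.78 for Drd1 in that table, with larger SEs than in the main fit. With only the groups compared, knockout brainstem had 2 against cortex, with fewer samples in the fit.

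Differences that changed sign were mostly small ones in hippocampus. In the deposited table, the knockout cortex and knockout hippocampus columns mixed arrays of both regions. The column of the third wild-type hippocampus there equalled the first knockout hippocampus, so the wild-type hippocampus columns mixed genotypes. What turned the signs under the other settings was not tested. Knockout minus wild type in hippocampus turned to 0.0136 (Drd2), 0.0476 (Gpr6) and 0.31 (Adora2a) under normexp, to 0.20 (Adora2a) with probes averaged, to 0.45 (Adora2a) and 0.00 (Penk) on the other probe, and to 0.43 (Drd1), 0.46 (Drd2), 0.26 (Ppp1r1b), 0.65 (Gpr6), 0.12 (Adora2a) and 0.44 (Rgs9) in the deposited table, where knockout brainstem differed by 0.39 from cortex (Penk) and by -0.0043 (Drd1) and -0.25 (Ppp1r1b) from hippocampus. Adora2a, knockout hippocampus minus cortex, was -2.54 under normexp, -0.0584 under quantile scaling, -0.11 under median scaling, -1.53 with probes averaged, -0.0699 with the slide as a random block and -3.07 on the other probe. Adora2a, brainstem minus hippocampus, was 0.0222 in wild type and 0.90 in knockout under normexp, 0.43 in knockout with probes averaged, and 0.0542 and 1.14 on the other probe. Gpr6, wild-type brainstem minus hippocampus, was 0.20 with the slide as a block.

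With each array left out, knockout minus wild type ran from -0.23 to 0.0297 for Adora2a in cortex. In hippocampus it ran from -0.0913 to 0.0215 for Adora2a, -0.46 to 0.28 for Drd1, -0.23 to 0.0773 for Drd2, -0.44 to 0.024 for Gpr6, -0.0085 to 1.08 for Isl1, -0.12 to 0.12 for Rgs9 and -0.0123 to 0.28 for Tac1. In brainstem it ran from -0.19 to 0.0655 for Drd2 and -0.0311 to 0.73 for Penk. Hippocampus minus cortex ran from -0.18 to 0.0756 in wild type and -0.12 to 0.12 in knockout for Adora2a, and knockout brainstem minus hippocampus from -0.15 to 0.58 for Ppp1r1b. Signal over background limited Isl1 and Gpr6 in hippocampus, where 2 and 1 arrays had levels not well above background. With normexp background correction, wild-type hippocampus minus cortex was over 1.5 times smaller for Drd2, Gpr6 and Isl1, with Gpr6 at -1.06 and Isl1 at -1.53.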

Other observations

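The other lists of region and cell type markers showed no call between genotypes in limma. Their median knockout minus wild-type differences in cortex, hippocampus and brainstem were 0.09, -0.13 and 0.04 for the 10 hippocampal genes, -0.18, -0.12 and -0.08 for the 10 thalamic genes and -0.27, -0.09 and 0.03 for the 8 hypothalamic genes tested. The 8 hindbrain genes gave -0.31 in hippocampus and -0.15 in brainstem. Endothelial genes (6 tested) gave 0.21, 0.01 and 0.15, and in cortex 6 of 6 were above 0. Astrocyte genes (6 tested) gave 0.04, 0.13 and 0.01, microglial genes (6 tested) 0.10, 0.01 and 0.07. Oligodendrocyte genes (6 tested) gave -0.16 in hippocampus, where 6 of 6 were below 0, and 0.08 in brainstem. At an unadjusted p under 0.05 stood 2 hippocampal, 1 thalamic and 1 hypothalamic gene in cortex, 1 hypothalamic gene in hippocampus and 2 astrocyte genes in brainstem.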
